A study of Homo sapiens with 12 samples.

Results

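EPAS1 and TFRC are a hypoxia gene and an iron gene, described here through the accessible chromatin sites around them in MDA-MB-453 cells, an established human breast cancer line. The assay was ATAC-seq: a transposase inserts adapters where DNA is accessible, and reads pile up there. Every peak with its summit inside the RefSeq span of the gene (hg38) or within 50 kb of either end was taken, and peaks that overlapped by 1 bp or more were merged per gene into sites. This gave 46 sites at EPAS1 and 29 at TFRC, 75 of the 166523 sites that the same merging gave over the genome. Both genes were picked because sites there opened with doxycycline in these same libraries. Counts and levels with doxycycline are therefore a description without a test, and only estradiol was tested.

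The cells carried an ectopic estrogen receptor alpha (ER) under an inducible system, in 3 lines. One line had ER Y537S, a ligand-binding domain mutant known for activity without hormone, one had K303R, a hinge mutant, and one had wild-type ER (WT). Each line was given doxycycline (Dox, 2 ug/mL, reading the unit mi of the labels as mL) with estradiol (E2, 1 nM), Dox alone or E2 alone for 2 days, or was left untreated. All 12 cultures, untreated ones included, carried the inducible construct and grew in medium with serum, which is not described as stripped of hormones. No cells without an ER construct were given Dox. Effects of the drug itself and of the induced receptor therefore cannot be told apart in any change with Dox described here. Whether a line was a single clone was not given in the sources used here. There was 1 library per line and treatment, so no group had a replicate, and nothing states that the cultures were otherwise independent.

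EPAS1 encodes HIF-2 alpha, a transcription factor subunit that oxygen-dependent hydroxylases mark for destruction and that, when oxygen is low, pairs with ARNT to switch on hypoxia genes. TFRC encodes the transferrin receptor, the cell-surface protein that carries iron-loaded transferrin into the cell. Its messenger RNA is stabilised by iron regulatory proteins when iron is scarce, and TFRC is itself a known target of hypoxia factors. Estrogen receptor binds DNA mostly at enhancers away from gene starts, which is why sites inside and around each gene are described along with the start.

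The bases just before each gene start are shown because an accessible site spanned each start and because TFRC is a hypoxia target. In the RefSeq promoters (GRCh38.p14) the capitals mark CGTG on the strand of the gene. These are the 4 fixed letters of NCGTG, a loose form of the hypoxia response element core that allows any first letter. That letter is G and then C in the 2 EPAS1 matches, and A in the TFRC match.
EPAS1 (plus strand, chr2:46297157-46297406): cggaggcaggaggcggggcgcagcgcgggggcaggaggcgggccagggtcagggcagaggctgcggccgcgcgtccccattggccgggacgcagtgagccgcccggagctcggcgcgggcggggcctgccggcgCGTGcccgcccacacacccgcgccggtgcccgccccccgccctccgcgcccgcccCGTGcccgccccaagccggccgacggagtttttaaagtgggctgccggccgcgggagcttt
TFRC (minus strand, chr3:196082091-196082340): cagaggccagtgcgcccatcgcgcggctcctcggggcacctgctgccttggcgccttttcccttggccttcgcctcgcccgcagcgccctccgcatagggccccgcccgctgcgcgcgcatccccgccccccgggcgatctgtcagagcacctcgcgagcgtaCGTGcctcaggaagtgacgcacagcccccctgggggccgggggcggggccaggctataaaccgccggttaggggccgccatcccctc
The EPAS1 stretch held 2 matches to NCGTG and the TFRC stretch 1, all on the strand of the gene when both strands were searched. Such a match is common: 61.05% of 35116 RefSeq promoters had one in the same 250 bases. Both stretches were rich in G and C (80.8% at EPAS1, 74.4% at TFRC), with 38 and 29 CpG pairs. Neither held the full palindromic estrogen response element (GGTCA and TGACC with 3 free letters between them), which 0.04% of promoters held, nor the AP-1 motif TGANTCA (6.57%), the forkhead motif TGTTTAC (2.98%) or the GATA motif AGATAA (9.17%). Sequences of the distal sites are not used here.

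Some facts of the whole series bear on these sites. The lists held 39522 to 133963 summits on chromosomes 1 to 22 and X, most in the Y537S libraries and fewest in K303R untreated. Each site is given by the authors' fold over background at the summit, column 7 of their peak lists, taking the largest where a library had several peaks in a site. This fold is not scaled between libraries. Its median over the 16630 sites with a peak in all 12 libraries ran from 7.88 in WT untreated and 8.32 in K303R untreated to 26.2 in Y537S E2. For the sites most described, column 7 is therefore also given divided by that median, as a relative level. The lowest listed column 7 was 3.31 to 4.16, so the lack of a peak leaves room for weaker accessibility at a site. The tags that open the peak names, called runs here although the labels do not say what they mark, fell into 3 kinds. All Y537S libraries shared 1, all K303R libraries shared another with WT E2 and WT untreated, and both WT libraries with Dox shared the last. The WT peak names carry the ER form, whereas those of K303R do not and those of Y537S hold the word trypsin instead, so both mutant forms rest on the labels alone. In WT, Dox and run cannot be told apart. Neither can line and run where Y537S is set beside the other lines, or where K303R with Dox is set beside WT with Dox. As to the cell type, of the 6 luminal genes with a start in the table, GATA3, ERBB2 and XBP1 had a peak over it in all 12 libraries, FOXA1 in 11, SPDEF in 10 and KRT8 in 7. Those of the basal genes KRT5 and TP63 and of PTPRC, a leukocyte gene, and PDGFRB, a fibroblast gene, had one in none.

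The leading site of the pair lay inside TFRC, 26.3 kb downstream of its start (chromosome 3, 196055004 to 196056663). The gene spans chromosome 3, 196049284 to 196082090, and the table used gives no exons, so intron or exon is not assigned. Column 7 there was 100.5 with Dox+E2 and 113 with Dox in Y537S, and neither E2 nor untreated Y537S had a peak. In K303R it was 26.0 with Dox+E2 and 31.4 with Dox, against no peak with E2 and 4.85 untreated. In WT it was 43.9 with Dox+E2 and 32.3 with Dox, against 5.40 with E2 and no peak untreated.

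All 6 libraries with Dox were thus far above all 6 without, and the highest value without Dox was 5.40. Within its own library the site stood near the top of the list. In Y537S with Dox only 16 sites of the genome, itself included, reached its column 7, which is 0.0174% of the sites with a peak, and with Dox+E2 35 did. In WT with Dox+E2 164 sites did, and with Dox 779. In K303R the numbers were 2289 with Dox+E2 and 935 with Dox. The relative level was 5.48 and 6.00 in Y537S with Dox+E2 and Dox, 1.72 and 2.24 in K303R, and 3.93 and 2.44 in WT. Y537S was highest and K303R lowest on both scales. The 2 weak peaks without Dox kept the site out of the strict class described next, in which no library without Dox may have a peak.

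**Figure D1:**
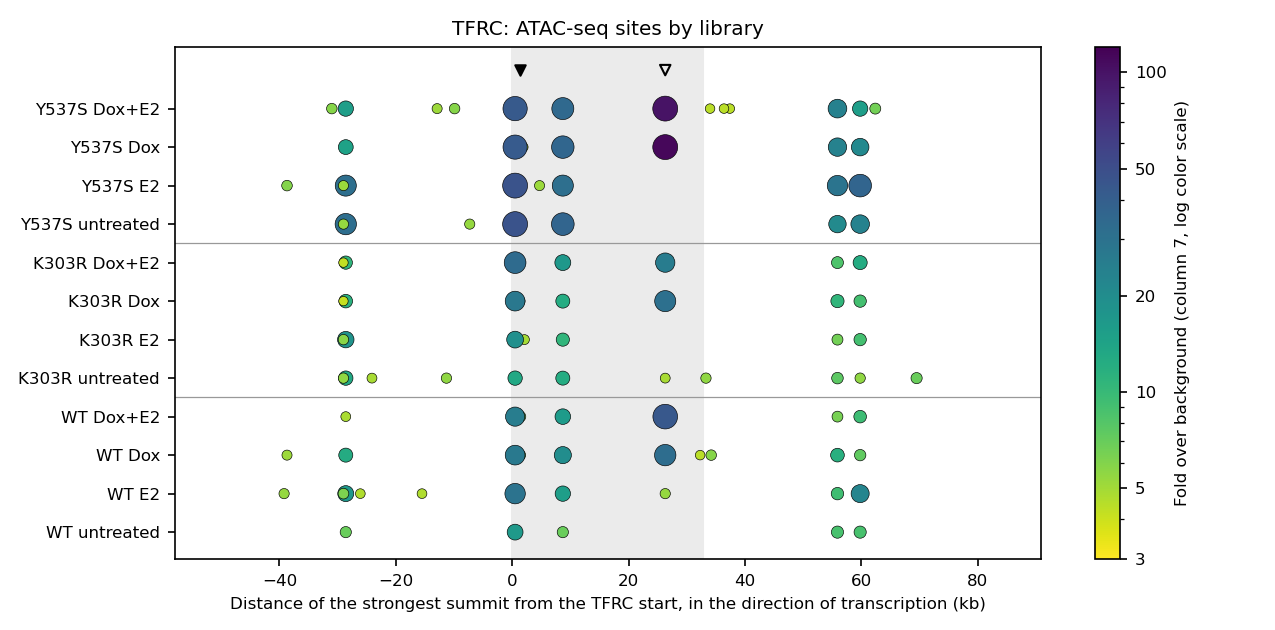
Sites within 50 kb of TFRC, 1 row per library; the horizontal axis is the distance of a site's strongest summit from the gene start in kb, the grey band is the gene, and color and size give column 7 of the authors' peak lists. The filled triangle marks the site gained in all 3 forms (1.4 kb) and the open triangle the 26.3 kb site, which is the darkest point in the Y537S rows with Dox (100.5 and 113).

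A site was called gained in all forms when all 6 Dox libraries had a peak and none of the other 6 did, and lost in the reverse case. Over the genome 1.3% of sites were gained in this way and 0.0024% were lost. TFRC had 1 gained site of 29 and EPAS1 6 of 46, and neither gene had a lost one. Since both genes were chosen from this contrast, nothing is read from these counts against the genome.

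The TFRC site in this class lay 1.4 kb inside the gene (chromosome 3, 196080393 to 196080809), next to the large site over the start. It was weak. Column 7 was 6.60 and 6.77 in Y537S with Dox+E2 and Dox, 5.03 and 4.13 in K303R, and 6.39 and 5.88 in WT, with no peak in the libraries without Dox.

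At EPAS1 (chromosome 2, 46297407 to 46386697, plus strand) 4 of the 6 gained sites lay inside the gene and 2 upstream, within LOC101926974, a long noncoding RNA gene. The 6 were 357 to 781 bp wide. The site 13.5 kb upstream (46283540 to 46284240) had column 7 of 13.9 and 16.6 in Y537S with Dox+E2 and Dox, 6.71 and 7.44 in K303R, and 10.4 and 8.82 in WT. The site 23.3 kb upstream (46273775 to 46274319) had 11 and 9.78 in Y537S, 7.55 and 8.27 in K303R, and 11.2 and 12.5 in WT. The relative level there was 0.60 and 0.52 in Y537S, 0.50 and 0.588 in K303R, and 1.00 and 0.944 in WT, so WT was the highest form.

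Inside EPAS1 the sites lay 16.8, 28.2, 35.8 and 45.2 kb from the start. At 35.8 kb (46332740 to 46333520) column 7 was 20.5 and 15.0 in Y537S with Dox+E2 and Dox, 8.39 and 5.79 in K303R, and 11.2 and 8.82 in WT. At 45.2 kb (46342296 to 46342901) it was 19.8 and 16.6 in Y537S, 7.55 and 5.79 in K303R, and 12 and 3.67 in WT, the last being the lowest value that library lists. On column 7 these 2 and the site 13.5 kb upstream had both Y537S values above all K303R and WT values, but on the relative scale they did not. There the level at 35.8 kb was 1.12 and 0.80 in Y537S with Dox+E2 and Dox, 0.556 and 0.412 in K303R, and 1.00 and 0.667 in WT. At 45.2 kb it was 1.08 and 0.88 in Y537S, 0.50 and 0.412 in K303R, and 1.07 and 0.278 in WT. At 13.5 kb upstream it was 0.76 and 0.88 in Y537S, 0.444 and 0.529 in K303R, and 0.929 and 0.667 in WT. Y537S and WT overlapped at all 3 sites, and K303R lay under Y537S.

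At 28.2 kb (46325368 to 46325724) the 6 values ran from 7.35 to 9.53, with relative levels of 0.48 to 0.786, so the forms lay close together. At 16.8 kb (46314061 to 46314474) they ran from 3.36 in K303R with Dox+E2 to 7.35 in WT with Dox, and the first of these is the lowest value its library lists. The relative level at 16.8 kb was 0.32 and 0.36 in Y537S with Dox+E2 and Dox, 0.222 and 0.412 in K303R, and 0.643 and 0.556 in WT. Next to the strict class, the site 34.6 kb from the start (46331665 to 46332219) had peaks in 11 libraries. Its column 7 was 24.9 and 15.0 in Y537S with Dox+E2 and Dox, against 5.99 and 6.13 with E2 and untreated. It was 13.4 and 12.4 in K303R, against 9.08 and no peak, and 18.4 and 11 in WT, against 6.94 and 6.12. The relative level was 1.36 and 0.80 in Y537S, against 0.229 and 0.25, and 0.889 and 0.882 in K303R, against 0.688 and no peak. In WT it was 1.64 and 0.833, against 0.45 and 0.778, so in WT the library with Dox alone stood little above the untreated one.

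The 6 EPAS1 sites were middling peaks. Over their 36 values column 7 ran from 3.36 to 20.5 with a median of 8.59, whereas the 26.3 kb site of TFRC had no value under 26.0 with Dox. When each library was limited to its 39522 strongest peaks, none of the 6 EPAS1 sites met the rule (genome: 0.19% gained, 0.0991% lost). With peaks of a −log10 q of 10 or more none did either (genome: 0.196% gained), and the 26.3 kb site of TFRC then met it. With a −log10 q of 5 or more 4 of them did (0.534% gained, 0.0126% lost), and with peaks over at least 50% of a site 2 did (0.412% gained, 0.003% lost). The TFRC site at 1.4 kb met the rule under none of these 4 settings, and the 26.3 kb site met it with peaks over at least 50% of a site as well.

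**Figure D2:**
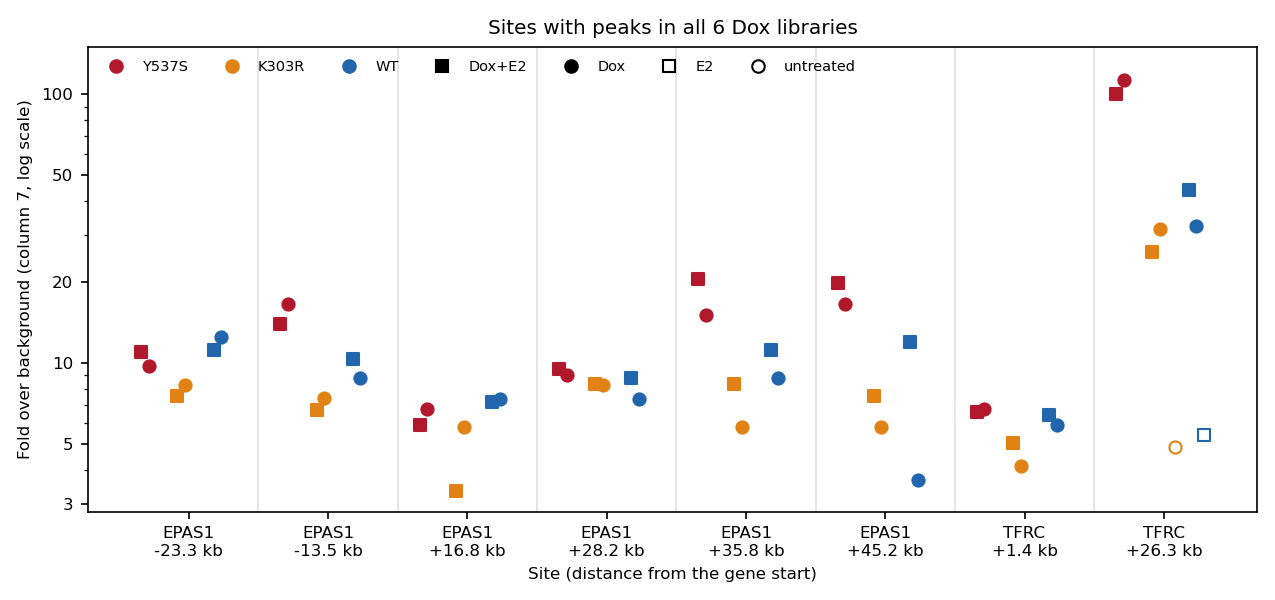
Column 7 (fold over background, log scale) at the 7 sites gained in all forms and at the 26.3 kb site of TFRC, by ER form (color), with Dox (filled) or without (open), and with E2 (squares) or without (circles). Absent points are libraries without a peak. The EPAS1 sites lie between 3.36 and 20.5, and the 26.3 kb site of TFRC reaches 113, with open points at 4.85 and 5.40.

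Within single forms, EPAS1 had 9 sites gained with Dox in Y537S, 9 in K303R and 8 in WT, where gained means a peak in both Dox libraries of the form and in neither of the others. Over the genome 18.2%, 8.54% and 4.14% of sites were gained in Y537S, K303R and WT, and nothing is read from the counts against these shares. All sites gained in at least 2 forms at EPAS1 were the 6 shared ones. The sites gained in Y537S alone, meaning that no other form met the rule, lay 28.2 kb upstream and 12.3 and 114.2 kb downstream of the start. The site 114.2 kb downstream (46411345 to 46411961, column 7 of 17.6 with Dox+E2 and 11.3 with Dox) had a peak in no other library. At 12.3 kb every K303R library had a peak (up to 13.4, against 5.87 and 6.77 in Y537S with Dox+E2 and Dox), as did WT with and without Dox. The site 28.2 kb upstream also had a peak in WT with Dox (5.14), and its Y537S value with Dox (3.76) is the lowest that library lists. Those gained in K303R alone lay 24.1 kb upstream and 58.4 and 113.2 kb downstream, and those in WT alone 20.5 kb upstream and 13.9 kb downstream. Sites open with Dox+E2 alone in a form were 2 in Y537S, the stronger 21.3 kb upstream with column 7 of 8.80, 3 in K303R, the strongest 32.6 kb downstream with 6.71, and 0 in WT (7.29%, 11.7% and 4.58% over the genome). The count gained moved most in K303R, to 17 without its Dox+E2 library and 14 without its E2 library, and in WT to 15 without its Dox+E2 library.

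EPAS1 also had sites that lost their peak with Dox, most of them in Y537S. There 6 sites had a peak in both libraries without Dox and in neither with it, against none in K303R and 1 in WT, where the genome had 6.71%, 0.0799% and 2.08%. As for the gained sites, nothing is read from these counts against the genome shares or between the forms. The strongest lay 9.2 kb inside the gene (46306195 to 46306779). It had no peak in Y537S with Dox+E2 or Dox, against 20.2 with E2 and 13.0 untreated. In K303R it had column 7 of 17.6 and 17.4 with Dox+E2 and Dox, against 10.7 and 9.02 with E2 and untreated. In WT it had 7.19 and 16.2, against 13.1 and 9.63. The relative level was 0.771 and 0.531 in Y537S with E2 and untreated, 1.17, 1.24, 0.812 and 1.08 in K303R with Dox+E2, Dox, E2 and untreated, and 0.643, 1.22, 0.85 and 1.22 in WT. A peak was thus absent only from the 2 Y537S libraries with Dox, which had the longest lists of the series. Their median column 7 over sites with a peak in all 12 libraries was 18.3 with Dox+E2 and 18.8 with Dox. That median was 26.2 in Y537S with E2 and 24.5 untreated. Why the peak was missing was not tested.

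The other sites lost in Y537S lay 45.6 kb upstream and 13.9, 21.9, 110.9 and 113.2 kb downstream of the start. The one 13.9 kb downstream was lost in Y537S and gained in WT: it had no peak with Dox in Y537S, against 8.24 with E2 and 4.60 untreated, but 8.78 and 8.08 in WT with Dox+E2 and Dox, against none without Dox. The one 113.2 kb downstream was lost in Y537S (8.98 with E2, 9.20 untreated) and gained in K303R, where it was weak (4.19 with Dox+E2, 5.79 with Dox). In WT it had a peak with Dox (6.61) and untreated (4.38), and none with Dox+E2 or E2. The site lost in WT lay 58.4 kb downstream and was weak (6.17 with E2, 3.5 untreated). It is 1 of those gained in K303R, at 3.36 and 4.96 with Dox+E2 and Dox. The values 3.5 and 3.36 are the lowest that their libraries list. In Y537S this site had 14.2 with E2, 15.3 untreated and 5.13 with Dox+E2, and no peak with Dox.

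**Figure D3:**
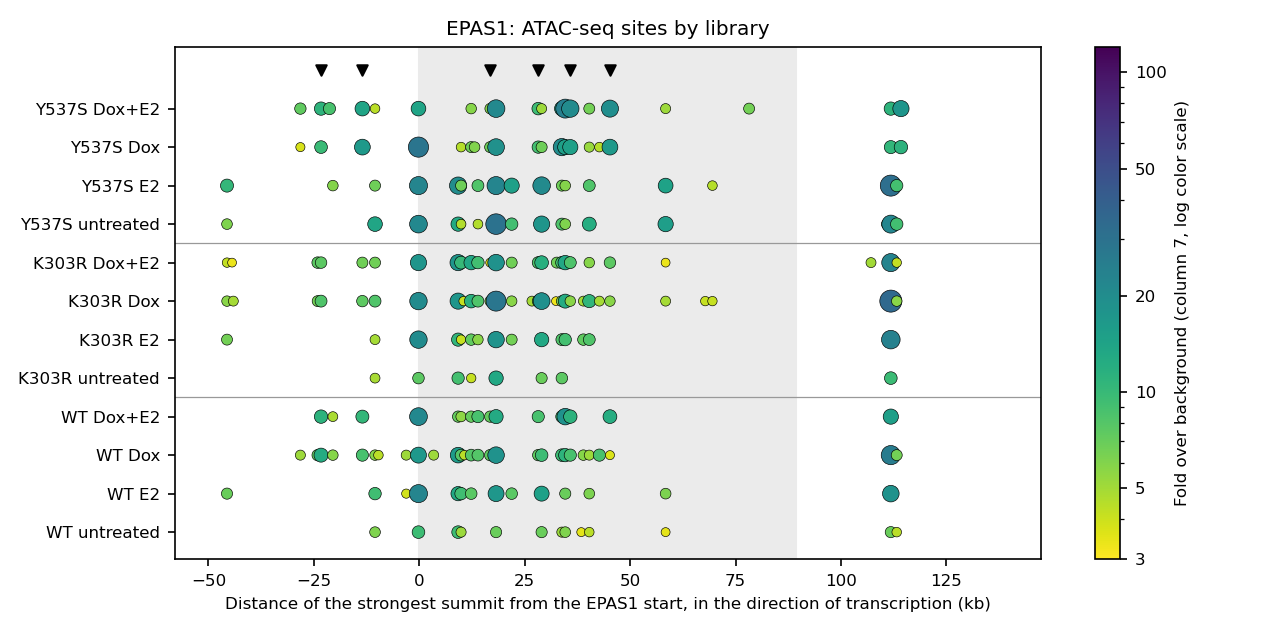
Sites within 50 kb of EPAS1, 1 row per library, drawn as for TFRC; triangles mark the 6 sites gained in all forms. At 9.2 kb a point is missing from the 2 Y537S rows with Dox and present in the 10 others, and the sites 23.3 and 13.5 kb upstream appear in the Dox rows alone.

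At TFRC Y537S gained 2 sites of 29 (the 1.4 and 26.3 kb sites; 18.2% over the genome) and lost 1 (6.71%), 29.0 kb upstream, which had 5.24 with E2 and 5.37 untreated. K303R and WT gained 1 each (8.54% and 4.14%) and lost none. Of the 29 TFRC sites 20 had a peak in 1 library only (69.0%, against 32% over the genome), with column 7 of 4.40 to 6.94. In 7 of these it was in Y537S with Dox+E2, the strongest 62.4 kb downstream with 6.60. The same 7 were all TFRC sites open with Dox+E2 alone among the Y537S libraries (24.1%). The genome share by that rule, which disregards the other forms, was 7.29%. Without the Y537S Dox library the count gained in Y537S was 9, and without WT Dox+E2 the count gained in WT was 4. It was 2 in K303R without its untreated library and 2 in WT without its E2 library, since the weak peaks at 26.3 kb then dropped out. At EPAS1 15 of 46 sites had a peak in 1 library (32.6%), with column 7 of 3.31 to 8.80.

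A peak in all 12 libraries was found at 3 EPAS1 sites and 5 TFRC sites (6.52% and 17.2%, against 9.99% over the genome). The TFRC site over the start (196080879 to 196082994, strongest summit 0.5 kb inside the gene) was the strongest of them. Its column 7 was 42.5, 42.1, 46.4 and 46.8 in Y537S with Dox+E2, Dox, E2 and untreated, 33.6, 27.3, 19.0 and 13.2 in K303R, and 25.5, 27.2, 29.3 and 16.6 in WT. On the relative scale it spanned 1.44 to 2.32 and was above the library median everywhere.

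The EPAS1 site at the start (46296483 to 46300299) merged several summits over 3817 bp. A peak covered the start base itself in 10 libraries. Its relative level ran from 0.760 in Y537S with Dox+E2 to 1.93 in WT with Dox+E2, with column 7 of 13.9 and 21.6 in these 2 libraries. Both gene starts thus lay in sites with peaks with and without Dox. Inside EPAS1 the site 18.2 kb from the start (46315015 to 46315923), between the start and the gained sites, had column 7 of 21.3, 18.8, 22.5 and 29.9 in Y537S with Dox+E2, Dox, E2 and untreated, 18.5, 28.1, 18.2 and 13.2 in K303R, and 12.8, 18.4, 17.0 and 7.0 in WT. Inside TFRC the site 8.7 kb from the start (196072934 to 196073737) had 34.5, 36.1, 31.4 and 36.8 in Y537S, 16.8, 12.4, 10.7 and 12.5 in K303R, and 16.0, 19.8, 15.4 and 7.0 in WT. In both, libraries with and without Dox overlapped. The TFRC sites 55.9 and 59.8 kb downstream ran over relative levels of 0.50 to 1.32 and 0.556 to 1.45.

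The strongest column 7 at EPAS1, 34.7 in K303R with Dox, lay beyond the gene, 111.8 kb downstream of the start inside the noncoding gene LOC124907762 (46408526 to 46409806). The relative level there was 0.60 and 0.56 in Y537S with Dox+E2 and Dox, against 1.2 and 0.906 with E2 and untreated. In K303R it was 1.5 and 2.47, against 1.81 and 1.17, and in WT 1.36 and 1.94, against 1.2 and 0.889. The 2 Y537S libraries with Dox were the lowest of the 12. At TFRC the site 28.6 kb upstream (196110295 to 196110828) had lower mean relative levels with Dox than without in each form, by −0.65 in Y537S, −0.94 in K303R and −0.64 in WT on the log2 scale. In WT the 2 Dox values were 0.429 and 0.944, against 1.10 and 0.889 without Dox, so the groups overlapped.

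**Figure D4:**
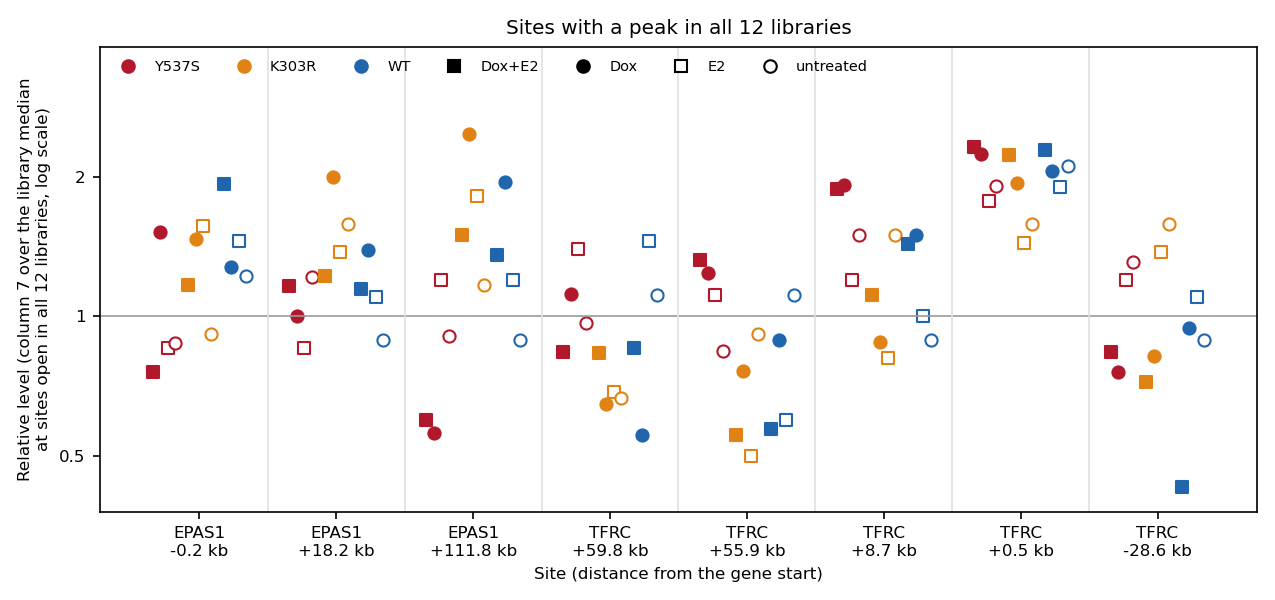
Relative level (column 7 divided by the library's median over sites open in all 12 libraries, log scale) at the 8 member sites with a peak in every library, with colors and symbols as for the gained sites. The TFRC start (0.5 kb) lies at 1.44 to 2.32 in all libraries, and at the EPAS1 site 111.8 kb downstream the filled Y537S points (0.60 and 0.56) are the lowest.

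The test of E2, a contrast that did not choose the genes, used 6 matched pairs of libraries with the same ER form and Dox state, each pair within 1 run. The value tested was the percent of a gene's sites with a peak, less the percent of all 166523 sites with a peak in that library. For EPAS1 the mean difference, E2 minus no E2, was −5.43 percentage points (SD 9.95 over 6 pairs, positive in 2 of 6; exact permutation test, two-sided, p = 0.281). For TFRC it was −0.38 points (SD 13.8, positive in 2 of 6 pairs; exact permutation test, two-sided, p = 0.938). These means pool pairs with and without Dox. The mean was −10.4 points with Dox and −0.44 without at EPAS1, and 4.63 and −5.4 at TFRC. The Dox states were not tested apart. Adjusted over the 2 genes (Benjamini-Hochberg), the exact p-values were 0.562 and 0.938, and the smallest the 64 arrangements can give is 0.0312. Neither mean difference over all 6 pairs was larger than the SD of single pairs, which is wider than the uncertainty of a mean.

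The raw counts show the spread. EPAS1 had 20 sites with a peak in Y537S with Dox+E2 and 19 with Dox, 26 and 31 in K303R, and 16 and 28 in WT. Without Dox it had 18 with E2 and 16 untreated in Y537S, 15 and 8 in K303R, and 14 and 13 in WT. With Dox, the EPAS1 count was thus lower with E2 than without in K303R and WT and higher by 1 in Y537S. The share of all sites with a peak moved too, at 43.8% with Dox+E2 and 40.9% with Dox in K303R, 25.7% and 32.6% in WT, and 55.7% and 55.1% in Y537S. TFRC had 14 and 8 in Y537S with Dox+E2 and Dox, 8 and 8 in K303R, and 7 and 10 in WT. Without Dox it had 8 and 7 in Y537S, 7 and 11 in K303R, and 10 and 5 in WT. Of the 11 sites in K303R untreated, 4 had a peak in that library alone.

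**Figure D5:**
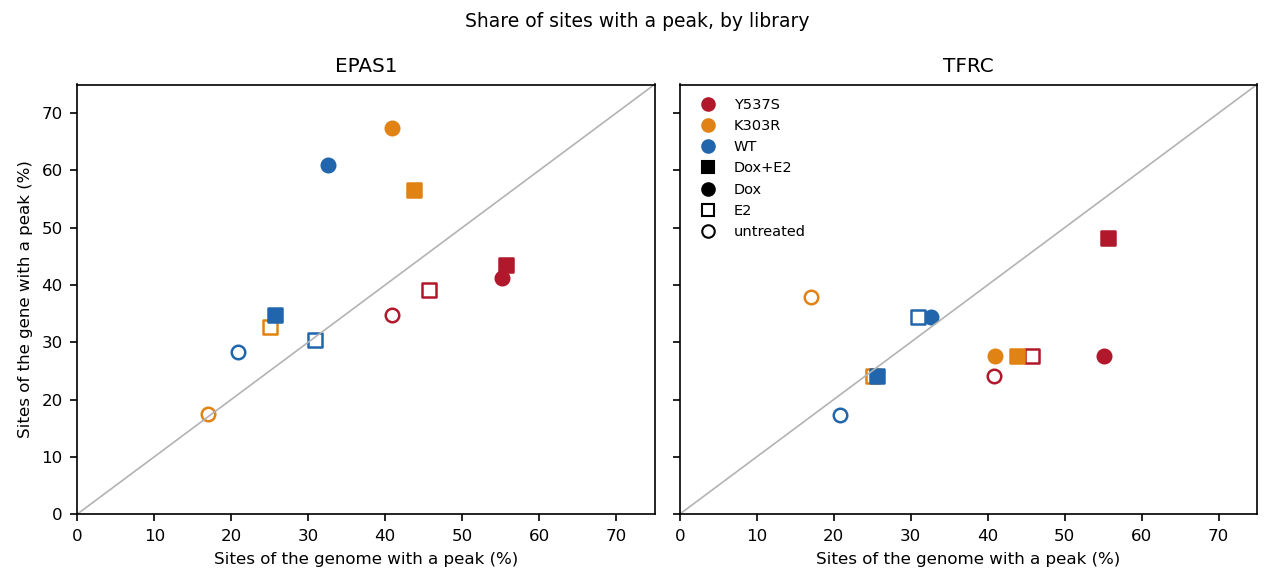
Percent of the sites of EPAS1 (left) and TFRC (right) with a peak, against the percent of all sites of the genome with a peak, 1 point per library; the line marks equal shares. The K303R and WT libraries with Dox alone lie farthest above the line at EPAS1 (67.4% and 60.9%), and most TFRC points of Y537S and K303R lie under it.

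At the 8 sites with a peak in all 12 libraries, E2 was also tested on level. limma was fitted to log2 column 7, centred on the library's median, over all 16630 such sites with ER form and Dox in the model. The E2 term was shared by the libraries with and without Dox, so opposite changes in these could cancel. The largest such difference was at the EPAS1 site 111.8 kb downstream. There the mean log2 ratio was −0.38 with Dox and 0.49 without, and the fit gave 0.06. None of the 8 passed, and the smallest unadjusted p was 0.0517 at the TFRC site 55.9 kb downstream (E2 over no E2, log2 −0.40, SE 0.19, limma adjusted p = 1.00). The other 7 had log2 ratios from −0.20 to 0.26. Over all 16630 sites 0 passed (0% called), with 578 at an unadjusted p under 0.05, and the median absolute log2 ratio was 0.119. In simulated data of this layout, with independent normal noise per site and library, a log2 change of 1 was recovered at 153 of 200 sites. There 12 unchanged sites were also called. Smaller changes were not simulated, and errors shared between the sites of a library were not either, so the recovery need not hold for the real values.

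Dox+E2 was also set beside Dox at the gained sites. Relative levels at the 6 gained EPAS1 sites were higher with Dox+E2 than with Dox at 6 of 6 in WT (median log2 ratio 0.49, from 0.08 to 1.95), at 4 of 6 in Y537S (median 0.16) and at 2 of 6 in K303R (median −0.16). The 1.95 came from the site at 45.2 kb, where WT with Dox had the lowest value its library lists (3.67). Column 7 itself was higher at 4 of 6 in WT, 4 in Y537S and 3 in K303R. At the 26.3 kb site of TFRC the log2 ratio of relative levels was 0.68 in WT, −0.13 in Y537S and −0.38 in K303R. Each ratio sets 1 library against 1 other, the 6 sites share those libraries, and with 3 forms no exact test could fall under 0.05, so none is given.

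The genes of both pathways were then looked up in 6 lists with 73 genes beside EPAS1 and TFRC. A site gained in all forms within 50 kb was found at 10 of the 73 (13.7%), against 13.5% of 19974 protein-coding genes, so the pathway genes stood at the background. None of the 10 other genes of hypoxia sensing, such as HIF1A, ARNT, VHL and EGLN1 to EGLN3, had one. Of 30 hypoxia targets 5 did: CA12, a carbonic anhydrase gene also known as an estrogen target, and SLC2A1, the glucose transporter GLUT1, with 3 sites each, and LDHA, a lactate dehydrogenase subunit, P4HA2, a collagen prolyl hydroxylase subunit, and ANGPTL4, a lipase inhibitor, with 1 each.

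Of 10 other iron uptake and transport genes 1 had such a site, TF, which encodes transferrin, the ligand of the receptor. Of 6 storage genes 2 did: NCOA4, the receptor that takes ferritin to the lysosome, with 2 sites, and PCBP2, an iron chaperone, with 1. HAMP, which encodes hepcidin, had 2 among the 8 regulators, and HMOX1, heme oxygenase 1, had 1 among the 9 heme and mitochondrial genes. No list gene had a site lost in all forms. Within forms, 52 of the 73 had a site gained in Y537S, 48 in K303R and 29 in WT (71.2%, 65.8% and 39.7%, against 68.4%, 58.2% and 34% of all genes). A site lost was found at 39, 1 and 19 (53.4%, 1.4% and 26.0%, against 46.2%, 1.54% and 20.8%). The list genes had a median of 14 sites each and all protein-coding genes 12, and the shares are not adjusted for this.

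The pattern of open sites over the 12 libraries was compared with that of 12415 other protein-coding genes with 10 or more sites, as Pearson's r of the percent of sites open less the percent of all sites open. The closest to EPAS1 were TEDDM1 (r = 0.974), CDKN2AIPNL (0.946), RANBP10 (0.943), TPD52L1 (0.939) and CD46 (0.939). The closest to TFRC were TBC1D16 (0.947), CDR2L (0.938), IPO9 (0.934), AXIN2 (0.928) and NRARP (0.927). These are the highest of many comparisons over 12 shared libraries that differ in depth, and are given as a description. A high r here need not go with gained sites: TEDDM1 had 1 site gained in all forms among 11, and the first 4 genes closest to TFRC had none.

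At the edges of the windows, the last sites inside the EPAS1 window lay 4.4 and 25.1 kb from its edges and the first outside 3.9 and 24.9 kb, with column 7 of 4.19 to 17.6 inside and 3.67 to 6.02 outside. At TFRC the outermost sites inside, each with a peak in 1 library, had 5.40 and 6.94, whereas the first outside, 4.8 and 4.0 kb beyond the edges, had peaks in all 12 libraries with column 7 up to 41.2. A window of 100 kb left the counts gained in all forms at 6 and 1.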

How the data were processed

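Per the labels' protocols, 12 ATAC-seq libraries were sequenced as 75 bp paired ends on a MiSeq or a NextSeq. The submitters' processing notes name the build hg38 and, with no version, MACS2, Picard, SAMtools, Bowtie2 and FastQC; settings and any shift of reads for the transposase were not given in the sources used here. The authors deposited 1 peak list per library. The deposited score is 10 times the −log10 q to within 1, the deposited −log10 p and −log10 q rate each summit, and the deposited fold (column 7) is the ratio of summit signal to background. Total reads are not used here.

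From these lists, sites, counts and relative levels were computed (Python 3.11.15, numpy 2.4.6, pandas 2.3.3; R 4.3.3, limma 3.58.1). Gene spans and promoters came from RefSeq tables of GRCh38.p14; both members and all list genes matched. Named sites followed a rule: every site gained or lost in all forms, open in all 12, at the start, strongest per gene, or leading within a form. The EPAS1 site at 34.6 kb and the sites named for opposite calls in 2 forms were singled out after their values were seen. Members and lists were chosen with earlier results of these data known. The motif search used promoters, since one at distal sites needs a genome. The limma fit was tested on simulated data. Alternatives are given in the closing section.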

Additional observations from a re-analysis of the deposited data

Results flagged for a closer look

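Among 10 values (the share of sites open at both genes and the relative level at the 8 sites with a peak in all 12 libraries), 1 moved with E2 one way in all 3 forms with Dox and the other way in all 3 without Dox. At the TFRC start site (0.5 kb) the log2 ratio of relative levels, E2 over no E2, was 0.05 to 0.20 with Dox in the 3 forms and −0.15 to −0.11 without Dox. The difference between the mean ratios, 0.13 with Dox and −0.13 without, was 0.27. This difference was not tested. Mean ratios of opposite sign, without one sign in all forms, were also seen at other sites, and the largest difference was at the EPAS1 site 111.8 kb downstream. There the ratio was −0.72 to 0.10 with Dox (mean −0.38) and 0.41 to 0.64 without Dox (mean 0.49), a difference of −0.87 that was not tested either.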

How the results depend on the processing

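With peaks of a −log10 q of 5 or more, TFRC had 0 sites gained in all forms and the pathway lists 5 genes. With 10 or more, EPAS1 had 0 in all forms, 3 in K303R and 5 in WT, TFRC had 1 in Y537S and 2 in K303R, and the lists 5 genes. At equal list length EPAS1 had 0 in all forms, 5 in Y537S and 2 in K303R, TFRC had 0 in all forms, 1 in Y537S and 0 in K303R, and the lists 4 genes. With peaks over at least 50% of a site, EPAS1 had 2 in all forms, TFRC 2 in WT, and the lists 6 genes; the 1 TFRC site gained in all forms was then the 26.3 kb site and not the 1.4 kb site, as at a −log10 q of 10 or more. Windows of 20 and 100 kb gave 5 and 19 list genes, and 100 kb gave TFRC 2 in K303R. Leaving out a library can only keep or add gained sites under this rule, so it does not test the counts downward. With 1 library left out, EPAS1 ranged over 9 to 17 in K303R, 8 to 15 in WT and 9 to 11 in Y537S, and TFRC over 2 to 9 in Y537S, 1 to 2 in K303R and 1 to 4 in WT. Stricter peaks and equal length remove weak sites by construction; for the rest the cause was not tested. The E2 difference for EPAS1 turned to 0.53 points at a −log10 q of 10 or more (exact permutation p = 0.562, two-sided), was −1.07 at 5 or more, −1.38 at equal list length and −2.17 with nothing subtracted, and was −8.43 to −1.38 with 1 form left out, smallest without WT. For TFRC it was 2.87 points with nothing subtracted (exact permutation p = 0.688), −5.26 to 5.63 with 1 form left out, positive without K303R (exact permutation p = 0.5), and −2.31 at a −log10 q of 10 or more, with exact permutation p = 0.0312, the smallest possible. The exact permutation p over all alternatives for TFRC ran from 0.0312 to 0.969. The limma result of 0 member sites held in all alternatives run, including a fit with the 6 matched pairs as a block, chosen after seeing the data (0 of 8 called, smallest limma adjusted p = 0.939). The labels carry no replicate numbers, so the pairing rests on ER form and Dox state alone. The lists hold no site under a column 7 of about 3.31 to 4.16, so at weak sites the depth cannot tell a missing peak from a closed site.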
